A study of Mus musculus with 18 samples.

Results

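Genes of cholesterol efflux and of the liver X receptor (LXR) pathway were followed in mouse macrophages whose choline supply or choline phosphorylation had been blocked. 10 genes were chosen by name from the 55385 genes of the count table. They are the receptors *Nr1h3* (LXRα) and *Nr1h2* (LXRβ), the efflux genes *Abca1*, *Abcg1* and *Apoe*, the LXR target *Mylip*, and *Scarb1*, *Npc1*, *Npc2* and *Soat1*, which take up, move or esterify cholesterol. All 10 matched 1 gene each and were among the 14979 genes with enough counts to be tested. 6 of them changed in the same direction with both inhibitors in both polarization states, as did 18.9% of all genes tested (9.59% higher and 9.34% lower). *Npc1* and *Soat1* rose in all 4 of these comparisons, and *Abcg1*, *Nr1h3*, *Apoe* and *Scarb1* fell.

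Bone marrow-derived macrophages (BMDM) came from female C57BL/6J mice aged 12 weeks, were grown in medium with L-929 culture supernatant, and were sequenced as poly-A RNA in 6 groups of 3 libraries. They received vehicle (Veh, 0.1% DMSO), 250 µM hemicholinium-3 (HC3), which blocks choline uptake, or 5 µM RSM-932a (RSM), which inhibits choline kinase, for 24 h. For the next 24 h the cells stayed naïve (M[0]) or were polarized, which was done with IL-4 at 20 ng/mL (M[IL-4]). All groups are wild type, and the labels name 3 individual mice as the source, so that the 3 libraries of a group are the replicates. Macrophages grown this way are an in vitro model, in which the culture supernatant of a fibroblast line supplies the growth factor.

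LXRs are nuclear receptors that bind oxysterols and desmosterol and pair with retinoid X receptors on DNA. When cholesterol accumulates in a macrophage, they switch on the transporters and the apolipoprotein that carry it out of the cell, and they switch on *Mylip*, a ubiquitin ligase gene. The reverse arm, driven by SREBP2, raises cholesterol synthesis and uptake when sterols are low. IL-4 polarized macrophages are known for high expression of lipid uptake and oxidation genes, among them targets of PPARγ.

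An LXR response element is a pair of AGGTCA-like hexamers that lie 4 bases apart in the same orientation (DR4), and the *Abca1* promoter is a textbook case. Promoter windows of 300 bases (250 before and 50 after a RefSeq start, GRCm38.p6) were given for 7 of the 10 genes in 10 windows. *Abcg1*, *Npc1* and *Scarb1* were not in that table. The windows of *Abca1* (chr4:53159846-53160145, minus strand), *Mylip* (chr13:45389492-45389791, plus strand) and *Apoe* (chr7:19699139-19699438, minus strand) are shown because these 3 LXR targets moved differently in the data below. Capitals in *Abca1* mark CACGTG, an E-box, and the DR4 match on the opposite strand. Capitals in *Mylip* and *Apoe* mark matches to a sterol regulatory element of 10 bases.
Abca1: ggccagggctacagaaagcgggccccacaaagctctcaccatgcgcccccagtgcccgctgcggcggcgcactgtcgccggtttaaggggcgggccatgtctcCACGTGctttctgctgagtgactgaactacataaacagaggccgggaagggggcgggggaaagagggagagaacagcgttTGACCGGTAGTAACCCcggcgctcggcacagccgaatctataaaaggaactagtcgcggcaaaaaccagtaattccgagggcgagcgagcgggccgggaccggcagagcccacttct
Mylip: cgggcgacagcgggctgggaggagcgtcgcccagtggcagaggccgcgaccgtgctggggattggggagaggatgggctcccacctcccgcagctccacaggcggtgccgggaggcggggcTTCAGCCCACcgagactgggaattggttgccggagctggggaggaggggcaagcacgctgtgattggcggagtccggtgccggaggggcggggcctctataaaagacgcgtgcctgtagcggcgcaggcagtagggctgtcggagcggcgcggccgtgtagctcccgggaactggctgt
Apoe: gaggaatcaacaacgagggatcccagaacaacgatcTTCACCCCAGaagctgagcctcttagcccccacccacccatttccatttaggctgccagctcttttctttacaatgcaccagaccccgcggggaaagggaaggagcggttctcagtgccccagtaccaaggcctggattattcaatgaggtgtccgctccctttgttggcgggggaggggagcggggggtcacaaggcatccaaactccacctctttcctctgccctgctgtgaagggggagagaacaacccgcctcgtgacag
With up to 2 mismatches in the AGGTCA letters, on either strand, DR4 was found in 0 of the 10 windows and in 3.02% of all 32851 windows. With 3 mismatches, a setting added after that 0 was seen, it was found in 1 of the 7 genes, *Abca1*, at position -67 from the start, and in 21.9% of all windows. CACGTG was in the *Abca1* window at -147 and in 7.15% of all windows. The sterol regulatory element with up to 2 mismatches was in 4 windows of 3 genes (*Mylip*, *Apoe* and *Nr1h3*) and in 22.9% of all windows. The *Nr1h3* windows overlap and hold the same site, which is thus counted in each. TGATGCAA, an ATF4 composite element, with up to 1 mismatch was in 1 *Apoe* window other than the one shown and in 16.9% of all. The motifs marked do not overlap one another, and a match to letters is a description only.

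Libraries held 17457796 to 19522255 counts, and values are CPM (counts per 1e6 counts of a library, scaled by TMM), given as mean ± SD of 3 libraries. Differences are log2 fold changes from 1 quasi-likelihood fit of all 18 libraries in edgeR. A gene is said to rise or fall where its Benjamini-Hochberg FDR over the 14979 genes is under 0.05, and to pass 2-fold where its log2 fold change is also at least 1 or at most -1. All 8 macrophage markers examined were tested, and none was at 0. Their summed level was 20736.8 to 21728.7 CPM in Veh M[0], 8955.4 to 9969.5 in HC3 M[0] and 15987.6 to 17343.0 in RSM M[0]. In M[IL-4] it was 12275.2 to 12584.0 in Veh, 7859.8 to 8972.3 in HC3 and 11187.8 to 13460.6 in RSM. Of 7 stromal markers, 5 were tested, and their sum was 512 to 865 CPM in Veh M[0], 1220.5 to 1678.8 in HC3 M[0] and 1022.1 to 1465.7 in RSM M[0]. In M[IL-4] the stromal sum was 275 to 648 CPM for Veh, 550 to 1038.6 for HC3 and 532 to 1057.1 for RSM. Both sums differ between groups together with the genes below, and their part in the results was not tested. Neutrophil, B cell, T cell and dendritic cell markers summed to at most 2.79 CPM in any library, with *S100a9*, *Elane*, *Cd3d* and *Cd3g* at 0.

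Of the 10 genes, HC3 raised 2 and lowered 6 in M[0], where 44.1% of all genes passed (22.6% higher and 21.5% lower). RSM also raised 2 and lowered 6 in M[0], where 41.1% of all genes passed (20.5% higher and 20.7% lower). In M[IL-4], HC3 raised 3 and lowered 5 (38.8% of all genes, 18.9% higher and 19.9% lower), and RSM raised 3 and lowered 4 (38.6%, 20.1% higher and 18.5% lower). The median log2 fold change of the 10 genes was -0.60 (HC3) and -0.51 (RSM) in M[0], then -0.29 and -0.04 in M[IL-4], against 0.02, 0.01, 0.01 and 0.02 for all genes tested. Counting 2-fold changes, HC3 raised *Npc1* and lowered *Apoe* in M[0], where 5.93% of all genes were higher and 6.11% lower, and it raised *Npc1* and lowered *Scarb1* in M[IL-4] (4.72% and 5.53%). RSM lowered *Abcg1*, *Apoe* and *Scarb1* past 2-fold in both states (6.51% of all genes were lower in naïve and 6% in IL-4 polarized cells) and raised 0 of the 10 (5.05% of all genes were higher in either state). Libraries of inhibitor and Veh did not overlap for 8 of the 10 genes with either inhibitor in M[0] (52.2% and 51.5% of all genes for HC3 and RSM), and for 8 and 6 in M[IL-4] (45.9% and 46.6%). HC3 and RSM share the Veh libraries, so their changes are not independent of each other. RNA was taken from whole cultures, where fewer cells of a type and less RNA per cell cannot be told apart.

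**Figure D1:**
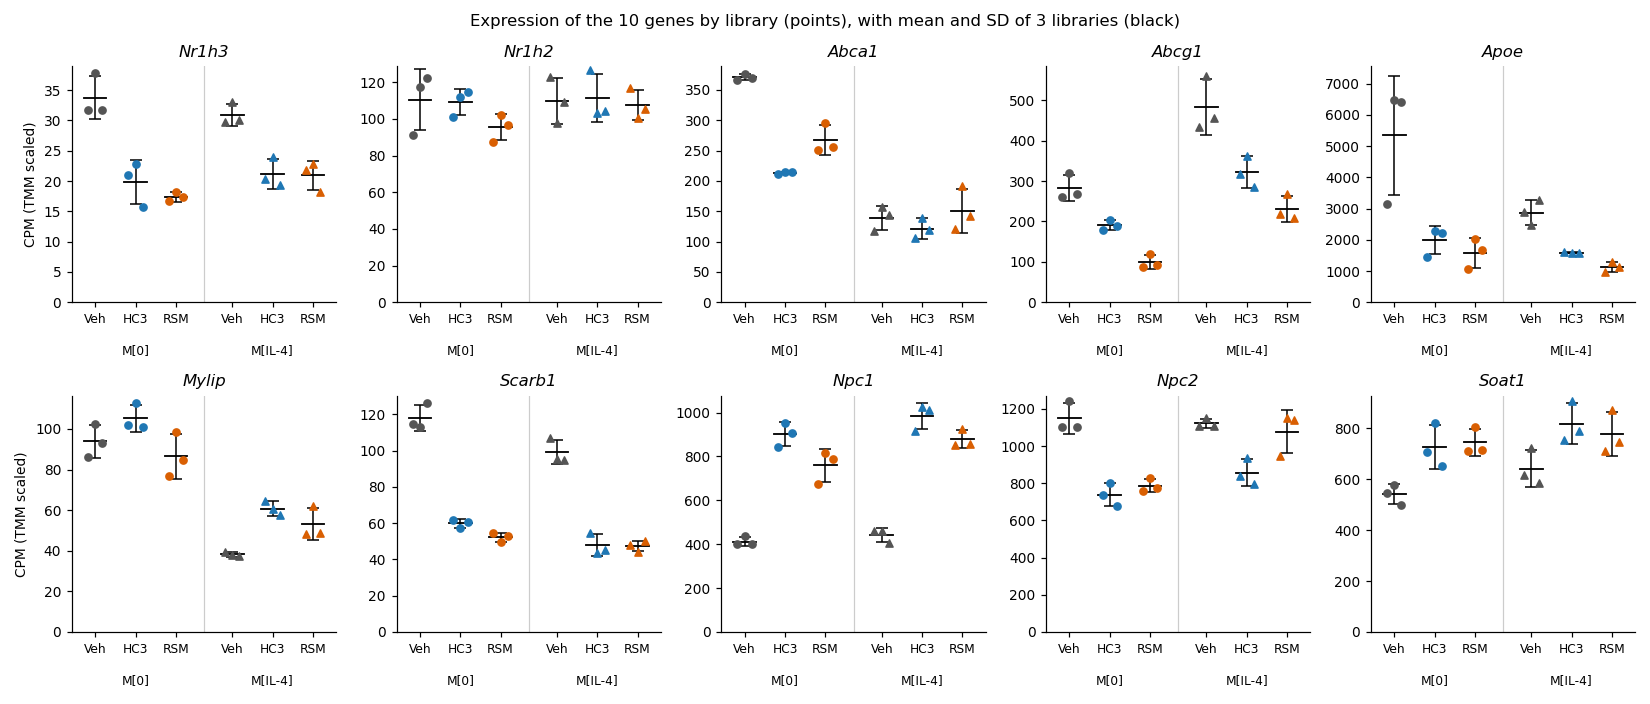
Expression of the 10 genes in CPM (y axes, linear from 0) for Veh, HC3 and RSM in M[0] (circles) and M[IL-4] (triangles). Points are libraries and black bars the mean and SD of 3. *Abca1* falls from 371 CPM in Veh M[0] to 139 in Veh M[IL-4] while *Abcg1* goes from 282 to 483, and *Npc1* stands above both Veh groups in every inhibitor library.

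Of the receptors, LXRα fell with both inhibitors and LXRβ did not pass in any inhibitor comparison. In Veh M[0], *Nr1h3* (ENSMUSG00000002108, chr2:91184061-91202834, minus strand, GRCm38) stood at 31.7, 37.9 and 31.7 CPM. The HC3 M[0] libraries held 20.97, 22.8 and 15.8 CPM, and the RSM M[0] libraries 16.7, 18.3 and 17.4. All 6 inhibitor libraries lay below all 3 Veh libraries. *Nr1h3* fell by 0.76 (SE 0.125, FDR = 5.99e-05) with HC3 and by 0.95 (SE 0.126, FDR = 5.54e-06) with RSM on the log2 scale. In M[IL-4], Veh libraries held 29.7, 33.0 and 30.1 CPM, HC3 libraries 20.3, 24.0 and 19.3, and RSM libraries 21.9, 22.8 and 18.3. Again no library overlapped, with log2 fold changes of -0.54 (SE 0.125, FDR = 0.00178) for HC3 and -0.56 (SE 0.124, FDR = 0.00134) for RSM. IL-4 itself left *Nr1h3* with values of -0.13 in Veh (FDR = 0.472), 0.09 in HC3 (FDR = 0.704) and 0.27 in RSM (FDR = 0.189) as log2 fold changes. In order of level, Veh M[0] (33.8 ± 3.57) and Veh M[IL-4] (30.9 ± 1.82) overlapped at the top. The 4 inhibitor groups lay between 17.4 and 21.2 CPM on average, each overlapping its neighbour in this order. HC3 against RSM was 0.19 in M[0] (FDR = 0.383) and 0.02 in M[IL-4] (95% interval -0.25 to 0.28, FDR = 0.962).

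*Nr1h2* (ENSMUSG00000060601, chr7:44549616-44553951, minus strand) varied more between libraries than between groups. Its 3 Veh M[0] libraries held 91.5, 117.5 and 122 CPM, and group means ran only from 95.5 ± 7.24 (RSM M[0]) to 111 ± 13.1 (HC3 M[IL-4]), a ratio of 1.17, with every neighbour in that order overlapping. Log2 fold changes were -0.01 (HC3) and -0.21 (RSM) for naïve cells, then 0.02 and -0.03 after IL-4, with FDRs of 0.927, 0.137, 0.908 and 0.854. The RSM value in M[0] passed without replicate 1 (-0.28, FDR = 0.00905) and with the replicate number as a block within M[0] (FDR = 0.00246). Over all alternatives its FDR ran from 0.00246 to 0.553, and RSM was lower than Veh in 3 of 3 same-numbered pairs. HC3 against RSM was 0.19 in M[0] (FDR = 0.279) and passed with the same block (FDR = 0.00728, range over alternatives 0.00728 to 0.675). The 95% intervals of *Nr1h2*, -0.24 to 0.21 for HC3 in M[0], -0.44 to 0.02 for RSM in M[0], -0.21 to 0.25 for HC3 in M[IL-4] and -0.26 to 0.20 for RSM in M[IL-4], did not reach a 2-fold change. For IL-4 the values of *Nr1h2* were -0.01 in Veh (FDR = 0.974), 0.03 under HC3 (FDR = 0.912) and 0.17 under RSM (FDR = 0.353). The value in Veh was -0.23 without replicate 1 (FDR = 0.0308) and 0.11 without replicate 2 (FDR = 0.569). Per kilobase of exon, *Nr1h2* stood at 32.9 CPM per kb in Veh M[0] and *Nr1h3* at 13.4. In RSM M[0] the corresponding levels were 28.5 and 6.93 CPM per kb.

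The efflux genes *Abca1* and *Abcg1* encode the transporters that load cholesterol onto lipid-poor apolipoprotein A-I and onto HDL, and they moved apart with IL-4. *Abca1* (ENSMUSG00000015243, chr4:53030787-53159895, minus strand) held 367, 375.9 and 369.9 CPM in the Veh M[0] libraries. IL-4 took it to 117, 156 and 143 CPM in Veh M[IL-4], so that all IL-4 libraries lay below all naïve ones. The log2 fold change was -1.42 (SE 0.135, FDR = 1.76e-07), past 2-fold, where 3.83% of all genes were lower by that mark. *Abcg1* (ENSMUSG00000024030, chr17:31057675-31117988, plus strand) went the other way in the same libraries. It held 260.3, 319 and 268 CPM in Veh M[0] and 434, 561 and 455 in Veh M[IL-4], again without overlap, and rose by a log2 fold change of 0.78 (SE 0.127, FDR = 0.000119).

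Both inhibitors lowered both transporters in naïve cells. For *Abca1*, HC3 M[0] libraries held 210.7, 214 and 214 CPM and RSM M[0] libraries 250.1, 296 and 255. Neither group overlapped Veh, and the falls were 0.80 (SE 0.132, FDR = 7.12e-05) for HC3 and 0.47 (SE 0.132, FDR = 0.00719) for RSM on the log2 scale. The RSM call was lost without replicate 3 (log2 fold change -0.45, FDR = 0.13). For *Abcg1*, HC3 M[0] libraries held 178.9, 204 and 189 CPM and RSM M[0] libraries 86.9, 118 and 93.5. The fall was 0.57 (SE 0.128, FDR = 0.00138) with HC3 and 1.5 (SE 0.131, FDR = 2.82e-08) with RSM. HC3 and RSM libraries did not overlap each other for either gene in M[0]. *Abcg1* was higher with HC3 than with RSM by 0.94 (SE 0.13, FDR = 5.8e-05), and *Abca1* was at -0.33 for the same contrast (FDR = 0.118), which passed with the replicate number as a block (FDR = 6.02e-05, range over alternatives 6.02e-05 to 0.434).

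In M[IL-4] both inhibitors lowered *Abcg1* too, whereas *Abca1* libraries overlapped Veh. *Abcg1* held 319, 363 and 284 CPM with HC3 and 217, 267 and 207 with RSM, all below the lowest Veh library of 434. HC3 gave -0.59 (SE 0.127, FDR = 0.00112) as log2 fold change, RSM -1.07 (SE 0.128, FDR = 1.89e-06). HC3 was above RSM by 0.48 (SE 0.127, FDR = 0.0158), a call lost without replicate 1 (FDR = 0.126) and without replicate 3 (FDR = 0.176). *Abca1* held 106, 139 and 118 CPM with HC3 and 120.5, 191 and 142 with RSM. Its values against Veh were -0.20 for HC3 (95% interval -0.48 to 0.08, FDR = 0.269) and 0.12 for RSM (-0.16 to 0.40, FDR = 0.514). With the replicate block within M[IL-4], the HC3 difference passed (FDR = 0.00555, range over alternatives 0.00555 to 0.634), and HC3 was lower in 3 of 3 same-numbered pairs. HC3 against RSM was -0.32 for *Abca1* in M[IL-4] (FDR = 0.139), and this too passed with the replicate block (FDR = 0.000208, range over alternatives 0.000208 to 0.484).

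The response of *Abca1* to the inhibitors was 0.60 higher in M[IL-4] than in M[0] for HC3 (SE 0.188, FDR = 0.0645) and likewise 0.60 for RSM (SE 0.188, FDR = 0.0547), neither of which passed. Both passed with a replicate block over all groups (FDR = 0.0024 for HC3 and 0.00195 for RSM). They also passed with DESeq2 (FDR = 0.0231 and 0.0258), library size scaling (FDR = 0.0396 and 0.0358) and no count filter. Without replicate 2 both passed (FDR = 0.0219 and 0.023), but not without replicate 1 or 3 or with filterByExpr. The HC3 value alone passed when only the compared groups were fitted (FDR = 0.0241). Both passed too with the replicate number as a block within each state (FDR = 5.59e-06 and 4.62e-06). That fit of the interactions was added after seeing the data. FDRs over all alternatives ran from 2.79e-06 to 0.421 and from 4.62e-06 to 0.382. IL-4 lowered *Abca1* under HC3 (log2 fold change -0.81, FDR = 0.000264) and under RSM (-0.82, FDR = 0.000179) as well. It raised *Abcg1* under HC3 (0.76, FDR = 0.00036) and under RSM (1.21, FDR = 1.45e-06). The interaction of *Abcg1* was -0.02 for HC3 (95% interval -0.40 to 0.36, FDR = 0.974) and 0.44 for RSM (0.06 to 0.82, FDR = 0.159). The RSM value passed with the block within each state (FDR = 6.72e-05) and with the block over all groups (FDR = 0.00117). It also passed with no count filter (FDR = 0.00347) and without replicate 2 (FDR = 0.015). Over all alternatives its FDR ran from 6.72e-05 to 0.496. In order of level, *Abca1* ran from Veh M[0] over RSM M[0] to HC3 M[0] without overlap, and the 3 M[IL-4] groups overlapped below them. *Abcg1* was highest in Veh M[IL-4] and lowest in RSM M[0] (99.6 ± 16.6), a ratio of 4.85. HC3 M[IL-4], Veh M[0] and RSM M[IL-4] overlapped their neighbours in the middle of that order.

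*Apoe* encodes the apolipoprotein E that macrophages secrete with cholesterol, and it was the most abundant of the 10 genes at 2497.9 CPM per kb in Veh M[0], followed by *Npc2* at 211. *Apoe* (ENSMUSG00000002985, chr7:19696109-19699188, minus strand) was uneven between Veh M[0] libraries, at 3132.8, 6483.4 and 6405 CPM. HC3 M[0] libraries held 1465.1, 2285.4 and 2221.3 CPM and RSM M[0] libraries 1061.9, 2024.6 and 1670.1. Replicate 1 was the lowest library in each of these 3 groups, and even its Veh value lay above every inhibitor library. *Apoe* fell by 1.42 (SE 0.244, FDR = 0.000102) with HC3 and by 1.75 (SE 0.246, FDR = 1.2e-05) with RSM on the log2 scale.

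In M[IL-4], Veh libraries held 2883, 2475.2 and 3258.6 CPM of *Apoe*, HC3 libraries 1598.1, 1585 and 1574.6, and RSM libraries 957, 1297 and 1118.5. No inhibitor library reached the Veh range. The log2 fold changes were -0.86 for HC3 (SE 0.241, FDR = 0.00827) and -1.35 for RSM (SE 0.244, FDR = 0.00019), and the HC3 call was lost without replicate 3 (FDR = 0.148). IL-4 lowered *Apoe* in Veh by 0.89 (SE 0.241, FDR = 0.008), although the lowest naïve library, 3132.8, lay inside the IL-4 range. That call was lost without replicate 2 (-0.64, FDR = 0.0749) and without replicate 3 (-0.85, FDR = 0.132). Under HC3 and RSM the IL-4 values were -0.33 (FDR = 0.426) and -0.50 (FDR = 0.198). Both passed without replicate 1 (-0.51, FDR = 0.0272, and -0.62, FDR = 0.00827) and with no count filter (FDR = 0.00029 and 5.79e-11). The value under RSM also passed with the replicate block over all groups (FDR = 0.0463). Over all alternatives their FDRs ran up to 0.806 and 0.589. HC3 against RSM was 0.33 in M[0] (FDR = 0.43) and 0.50 in M[IL-4] (FDR = 0.211), and both passed with the replicate block (FDR = 0.00393 and 0.000125, ranges over alternatives 0.000174 to 0.77 and 3.26e-11 to 0.581).

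*Mylip* encodes a ubiquitin ligase, also called IDOL, that limits lipoprotein uptake, and it fell in 0 of the 4 inhibitor comparisons. *Mylip* (ENSMUSG00000038175, chr13:45389742-45412022, plus strand) held 86.2, 102 and 93.3 CPM in Veh M[0] and 39.6, 37.7 and 37.5 in Veh M[IL-4]. IL-4 thus lowered it without overlap, by 1.30 on the log2 scale (SE 0.102, FDR = 1.45e-08). In naïve cells HC3 libraries held 102, 113 and 101 CPM and RSM libraries 76.6, 98.4 and 84.5, and each group overlapped Veh. The log2 fold changes there were 0.16 (FDR = 0.191) for HC3, which passed with the replicate block (FDR = 0.0323, range over alternatives 0.0323 to 0.48), and -0.12 (FDR = 0.359) for RSM.

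In IL-4 polarized cells the inhibitor libraries of *Mylip* were all above Veh. HC3 libraries held 64.3, 60.8 and 57.4 CPM and RSM libraries 48.3, 62.0 and 48.9. *Mylip* rose by 0.67 (SE 0.102, FDR = 3.49e-05) with HC3 and by 0.47 (SE 0.102, FDR = 0.0011) with RSM. The response to HC3 differed between M[IL-4] and M[0] by 0.51 (SE 0.141, FDR = 0.0382), and that to RSM by 0.59 (SE 0.142, FDR = 0.0114). The HC3 interaction was lost without replicate 1 (FDR = 0.0977) and without replicate 3 (FDR = 0.36), and the RSM interaction without replicate 3 (FDR = 0.19). IL-4 still lowered *Mylip* under HC3 (-0.79, FDR = 1.32e-05) and under RSM (-0.70, FDR = 3.9e-05). All 9 naïve libraries lay above all 9 IL-4 libraries, and within each state HC3 had the highest mean. HC3 against RSM was 0.28 in M[0] (FDR = 0.0648) and 0.20 in M[IL-4] (FDR = 0.243), and both passed with the replicate block (FDR = 0.00126 and 0.0334, ranges over alternatives 0.00126 to 0.346 and 0.0197 to 0.722).

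**Figure D2:**
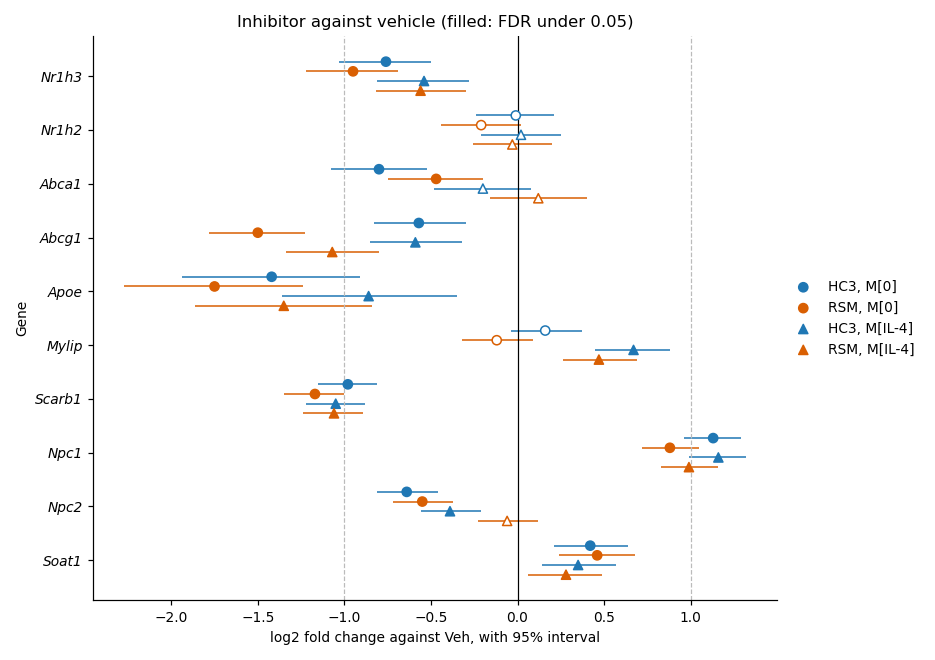
Log2 fold change of each inhibitor against Veh (x axis) for the 10 genes (y axis), HC3 in blue and RSM in orange, circles for M[0] and triangles for M[IL-4]. Lines are 95% intervals, filled symbols have an FDR under 0.05, and dashed lines mark 2-fold. *Npc1* and *Soat1* lie above 0 in all 4 comparisons, and *Abcg1*, *Nr1h3*, *Apoe* and *Scarb1* below.

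*Scarb1* encodes the scavenger receptor SR-BI, which exchanges cholesterol with HDL in both directions, and it fell by 0.98 to 1.17 on the log2 scale in the 4 inhibitor comparisons. *Scarb1* (ENSMUSG00000037936, chr5:125277087-125341094, minus strand) held 115, 113 and 126 CPM in Veh M[0], 61.9, 57.2 and 60.6 with HC3 and 54.5, 49.7 and 52.7 with RSM. With IL-4 *Scarb1* held 107, 95.5 and 95.02 CPM with Veh, 54.7, 43.6 and 45.2 with HC3 and 48.1, 44.4 and 49.97 with RSM. Every inhibitor library was below every Veh library of either state. In M[0] the log2 fold changes were -0.98 (SE 0.0811, FDR = 1.24e-08) for HC3 and -1.17 (SE 0.0817, FDR = 1.25e-09) for RSM. In M[IL-4] they were -1.05 (SE 0.0822, FDR = 7.88e-09) and -1.06 (SE 0.082, FDR = 6.01e-09).

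IL-4 lowered *Scarb1* a little in Veh (-0.25, SE 0.0797, FDR = 0.0224) and under HC3 (-0.32, SE 0.0825, FDR = 0.0117). Both calls were lost without replicate 3 (FDR = 0.348 and 0.237), and the one under HC3 also without replicate 2 (FDR = 0.0733) and when only those groups were fitted (FDR = 0.0509). HC3 and RSM differed by 0.19 in M[0] (95% interval 0.02 to 0.37, FDR = 0.134), which passed with the replicate block (FDR = 0.0163, range over alternatives 0.0163 to 0.47). In M[IL-4] the same difference was 0.01 (-0.16 to 0.19, FDR = 0.96).

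*Npc1* and *Npc2* encode the membrane protein and the soluble protein that pass cholesterol out of the lysosome one after the other, and in 3 of the 4 inhibitor comparisons *Npc1* rose while *Npc2* fell. *Npc1* (ENSMUSG00000024413) held 401, 437 and 399 CPM in Veh M[0], 844, 953 and 905 with HC3 and 675, 817 and 789.7 with RSM. After IL-4, *Npc1* held 461, 458 and 406 CPM with Veh, 914, 1025.7 and 1013 with HC3 and 852, 927 and 858 with RSM. The highest Veh library of either state, 461, was below the lowest inhibitor library, 675. *Npc1* rose by 1.13 (SE 0.0784, FDR = 1.13e-09) with HC3 and 0.88 (SE 0.0781, FDR = 3.38e-08) with RSM in M[0]. The rise after IL-4 was 1.16 (SE 0.0784, FDR = 1.34e-09) and 0.99 (SE 0.0782, FDR = 8.09e-09), and IL-4 itself gave 0.10 in Veh (FDR = 0.357).

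HC3 raised *Npc1* more than RSM in M[0], by 0.24 (SE 0.0773, FDR = 0.0426). That call was lost without replicate 1 (FDR = 0.128), without replicate 2 (FDR = 0.0766), without replicate 3 (FDR = 0.257) and in the fit of only those groups (FDR = 0.0817). The same contrast was 0.16 in M[IL-4] (FDR = 0.198), and passed with the replicate block (FDR = 0.017, range over alternatives 0.017 to 0.699). Exons of *Npc1* share 5.31% of their length with *Rmc1* and *Gm15956* on the opposite strand, whose reads cannot be told apart without a strand setting. *Rmc1*, looked up after these values were seen, was at 0.07, 0.12, -0.05 and -0.11 in the 4 inhibitor comparisons (FDR 0.252 to 0.644). The other 9 genes share no exon with an opposite gene, and none of those 9 has a near-identical copy.

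*Npc2* (ENSMUSG00000021242, chr12:84754562-84773152, minus strand) held 1100.4, 1243 and 1101.5 CPM in Veh M[0], 737, 803 and 676 with HC3 and 757, 825 and 776 with RSM. It fell without overlap, by 0.64 (SE 0.084, FDR = 5.37e-06) with HC3 and 0.55 (SE 0.0839, FDR = 3.26e-05) with RSM. In M[IL-4], Veh libraries held 1109.6, 1149.6 and 1105.4 CPM, HC3 libraries 838, 937 and 795, and RSM libraries 945, 1151.5 and 1138. HC3 again stood below Veh, with -0.39 (SE 0.0837, FDR = 0.00107), while RSM overlapped it with -0.06 (95% interval -0.23 to 0.12, FDR = 0.632).

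For *Npc2* the response to RSM differed between the states by 0.49 (SE 0.118, FDR = 0.012), and IL-4 raised the gene under RSM by 0.46 (SE 0.0838, FDR = 0.000618). Both were lost without replicate 3 (FDR = 0.225 and 0.0591). For HC3 the interaction was 0.25 (SE 0.118, FDR = 0.255). HC3 was below RSM in M[IL-4] by -0.33 (SE 0.0837, FDR = 0.0116), which was lost without replicate 3 (-0.24, FDR = 0.35) and when only those groups were fitted (FDR = 0.0525).

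*Soat1* encodes the acyltransferase that stores cholesterol as esters in lipid droplets, and it rose modestly in all 4 inhibitor comparisons. *Soat1* (ENSMUSG00000026600, chr1:156424525-156474331, minus strand) held 545, 578 and 500.3 CPM in Veh M[0], 706, 819.8 and 653 with HC3 and 711, 806 and 716 with RSM. Neither inhibitor group overlapped Veh, and *Soat1* rose by 0.42 with HC3 (SE 0.103, FDR = 0.00246) and by 0.46 with RSM (SE 0.103, FDR = 0.00136). IL-4 polarized cells held 617, 722 and 585 CPM with Veh, 755, 909 and 790.5 with HC3 and 711, 874 and 746 with RSM. RSM overlapped Veh there and HC3 did not, with 0.35 (SE 0.103, FDR = 0.0106) for HC3 and 0.28 (SE 0.103, FDR = 0.0402) for RSM. The HC3 call was lost without replicate 1 (FDR = 0.0524) and without replicate 3 (FDR = 0.123). The RSM call was lost without replicate 1 (FDR = 0.106), without replicate 3 (FDR = 0.232) and when only those groups were fitted (FDR = 0.0663). HC3 and RSM were close in M[0] (-0.04, 95% interval -0.25 to 0.18, FDR = 0.877) and in M[IL-4] (0.07, -0.14 to 0.29, FDR = 0.726). The IL-4 values of *Soat1* were 0.25 in Veh (FDR = 0.0794), 0.17 under HC3 (FDR = 0.31) and 0.06 under RSM (FDR = 0.779). In Veh the IL-4 libraries lay above all naïve ones, and the value passed with no count filter (FDR = 0.00328). With the replicate block over all groups, the values in Veh (FDR = 0.00109) and under HC3 (FDR = 0.0222) passed.

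IL-4 thus lowered 4 of the 10 genes in Veh (*Abca1*, *Mylip*, *Apoe* and *Scarb1*) and raised 1 (*Abcg1*), where 31.0% of all genes passed (14.9% lower and 16.1% higher). Under HC3 it lowered 3 and raised 1 (14.7% of all genes, 7.48% lower and 7.22% higher), and under RSM it lowered 2 and raised 2 (15.5%, 6.74% lower and 8.79% higher). The median log2 fold change of the 10 genes was -0.08, 0.06 and 0.12, and that of all genes -0.01, -0.01 and 0.0014. Past 2-fold, *Abca1* and *Mylip* were lower and 0 of the 10 higher in Veh (3.83% and 2.83% of all genes). *Abcg1* was higher and 0 lower under RSM (2.45% and 1.81%), and 0 of the 10 passed that mark under HC3 (1.82% of all genes higher and 2.14% lower) in edgeR.

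**Figure D3:**
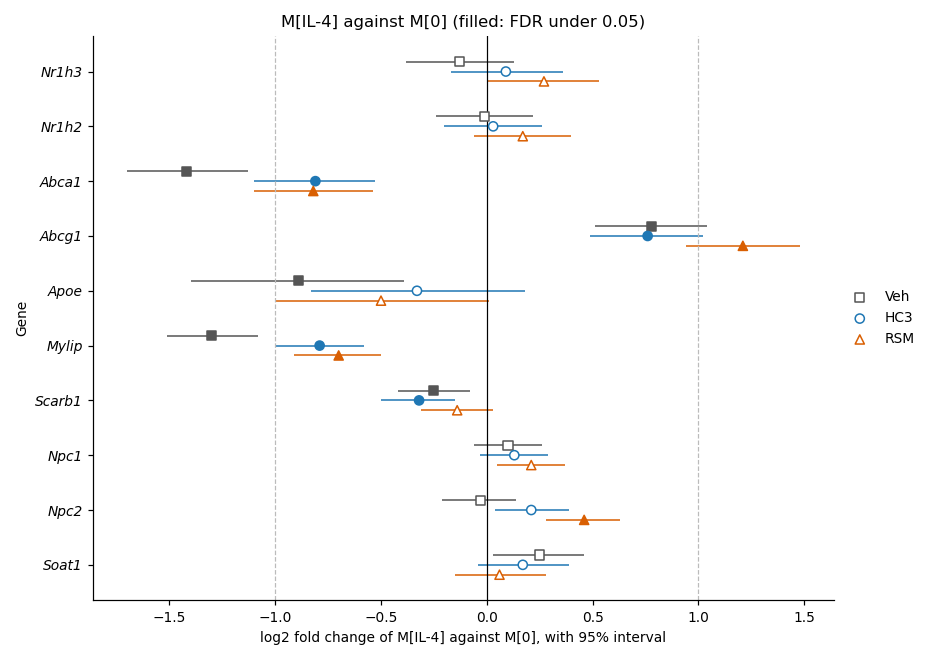
Log2 fold change of M[IL-4] against M[0] (x axis) for the 10 genes (y axis) in Veh (grey squares), HC3 (blue circles) and RSM (orange triangles), with 95% intervals. Filled symbols have an FDR under 0.05 and dashed lines mark 2-fold. *Abcg1* lies right of 0 and *Abca1* and *Mylip* left of it under all 3 treatments.

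The inhibitor responses of 1 gene differed between the states for HC3 (*Mylip*, with 6.48% of all genes passing) and of 2 genes for RSM (*Mylip* and *Npc2*, 9.19%). Medians of the interaction over the 10 genes were 0.13 and 0.40, against -0.01 and 0.01 for all genes. With the replicate block within each state, 4 of the 10 passed for HC3 (*Abca1*, *Mylip*, *Apoe* and *Npc2*) and 7 for RSM (*Abca1*, *Abcg1*, *Mylip*, *Nr1h3*, *Apoe*, *Soat1* and *Npc2*). The share of all genes passing with that block was not counted, so 6.48% and 9.19% are no background for these numbers. Besides *Abca1* and *Abcg1*, the calls gained were *Apoe* (0.57, FDR from 0.394 to 0.00416) and *Npc2* (0.25, FDR from 0.255 to 0.0208) for HC3. For RSM they were *Nr1h3* (0.39, FDR from 0.198 to 0.0258), *Apoe* (0.40, FDR from 0.572 to 0.0362) and *Soat1* (-0.18, FDR from 0.533 to 0.0339). Over all alternatives these 5 FDRs ranged from 9.22e-07 to 0.739, 0.0208 to 0.624, 0.0258 to 0.517, 0.00369 to 0.839 and 0.0339 to 0.785. HC3 and RSM, given at different doses and acting on different proteins, differed in *Abcg1* and *Npc1* in M[0] (2 of 10, 13.6% of all genes) and in *Abcg1* and *Npc2* in M[IL-4] (2 of 10, 13%). With the replicate number as a block within each state, 7 and 6 of the 10 passed that comparison, again without a count over all genes.

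The genes around the 10 were taken by list, first the enzymes that make or use up LXR ligands. Each list's counts stand against the shares of all genes that were higher or lower, which were 22.6% and 21.5% for HC3 and 20.5% and 20.7% for RSM in M[0]. After IL-4 these shares were 18.9% and 19.9% for HC3 and 20.1% and 18.5% for RSM. Of 6 tested genes of oxysterol and desmosterol metabolism (8 listed), each inhibitor lowered 2 in M[0]. In M[IL-4], HC3 raised 1 and lowered 3, and RSM raised 1 and lowered 4. *Cyp27a1*, which makes 27-hydroxycholesterol in mitochondria, held 53.9, 68.1 and 56.4 CPM in Veh M[0], 10.97, 11.8 and 11.4 with HC3 and 10.1, 10.4 and 12.4 with RSM. It fell without overlap by 2.38 (SE 0.126, FDR = 2.35e-11) and 2.44 (SE 0.126, FDR = 2.22e-11), and in M[IL-4] by 1.78 (FDR = 2.07e-09) and 1.59 (FDR = 6.82e-09).

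*Ch25h*, which makes 25-hydroxycholesterol, rose with the inhibitors in IL-4 polarized cells. Its naïve libraries held 0.940 to 1.49 CPM in every treatment group. Among IL-4 libraries it held 3.88, 3.02 and 4.65 CPM with Veh, 18.9, 19.0 and 21.2 with HC3 and 34.4, 22.3 and 33.8 with RSM, with no overlap between these 3 groups. *Ch25h* rose by 2.35 with HC3 (SE 0.183, FDR = 7.65e-09) and by 2.97 with RSM (SE 0.183, FDR = 3.26e-10), and the interactions with IL-4 2.27 (SE 0.336, FDR = 0.000402) and 2.97 (SE 0.339, FDR = 1.71e-05). IL-4 raised it in Veh by 1.69 (FDR = 2.23e-05), and 11.5% of its exon length is shared with *Gm26902* on the opposite strand. *Cyp51*, an earlier step of sterol synthesis, rose with IL-4 in Veh by 0.92 (FDR = 1.04e-05) and fell with RSM in M[IL-4] by 1.62 (FDR = 6.24e-09).

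Other LXR targets also split by gene. Of 12 tested (17 listed), HC3 raised 2 and lowered 7 in both states, and RSM raised 3 in both and lowered 6 (naïve) or 7 (IL-4). Medians for HC3 and RSM were -0.30 and -0.19 for naïve cells, then -0.47 and -0.39 after IL-4, of log2 fold changes. *Lpl*, the lipase that frees fatty acids from lipoproteins, fell more with RSM than with HC3. Veh M[0] libraries held 7528.9, 7348.5 and 7314.8 CPM, HC3 6037.2, 4245.3 and 5192.3, and RSM 1803.8, 1212.8 and 1812.6. HC3 was above RSM by 1.68 (SE 0.132, FDR = 6.83e-08) in M[0] and by 1.62 (SE 0.132, FDR = 8.8e-08) in M[IL-4], and RSM against Veh was at -2.20 (FDR = 2.19e-10) and -2.17 (FDR = 3.39e-10). *Pltp*, the phospholipid transfer protein, fell from 915 ± 114 CPM in Veh M[0] to 524 ± 55.7 with HC3 and 299 ± 34.0 with RSM, with 19.3% of its exon length shared with *Ctsa* on the opposite strand.

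*Mertk*, a receptor for dying cells, fell by 1.33 (FDR = 7.01e-08) with HC3 in M[0] and by 1.24 (FDR = 3.46e-07) with IL-4 in Veh, like *Abca1* and *Mylip* in the latter. *Lpcat3*, which inserts polyunsaturated chains into phosphatidylcholine, fell by 0.59 (FDR = 1.17e-06) with HC3 in M[IL-4] and shares 10.2% of its exon length with *Emg1* on the opposite strand. *Smpdl3a*, a phosphodiesterase of the acid sphingomyelinase family, rose in all 4 inhibitor comparisons, by 0.68 (HC3) and 0.91 (RSM) for naïve cells, then 0.88 and 1.02 after IL-4. *Arl4c*, a small GTPase, rose with RSM in M[IL-4] from 317.5 ± 10.4 to 676 ± 32.0 CPM (1.09, FDR = 4.5e-10). *Scd2*, a fatty acid desaturase, rose with IL-4 in Veh by 1.09 (FDR = 7.95e-05).

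**Figure D4:**
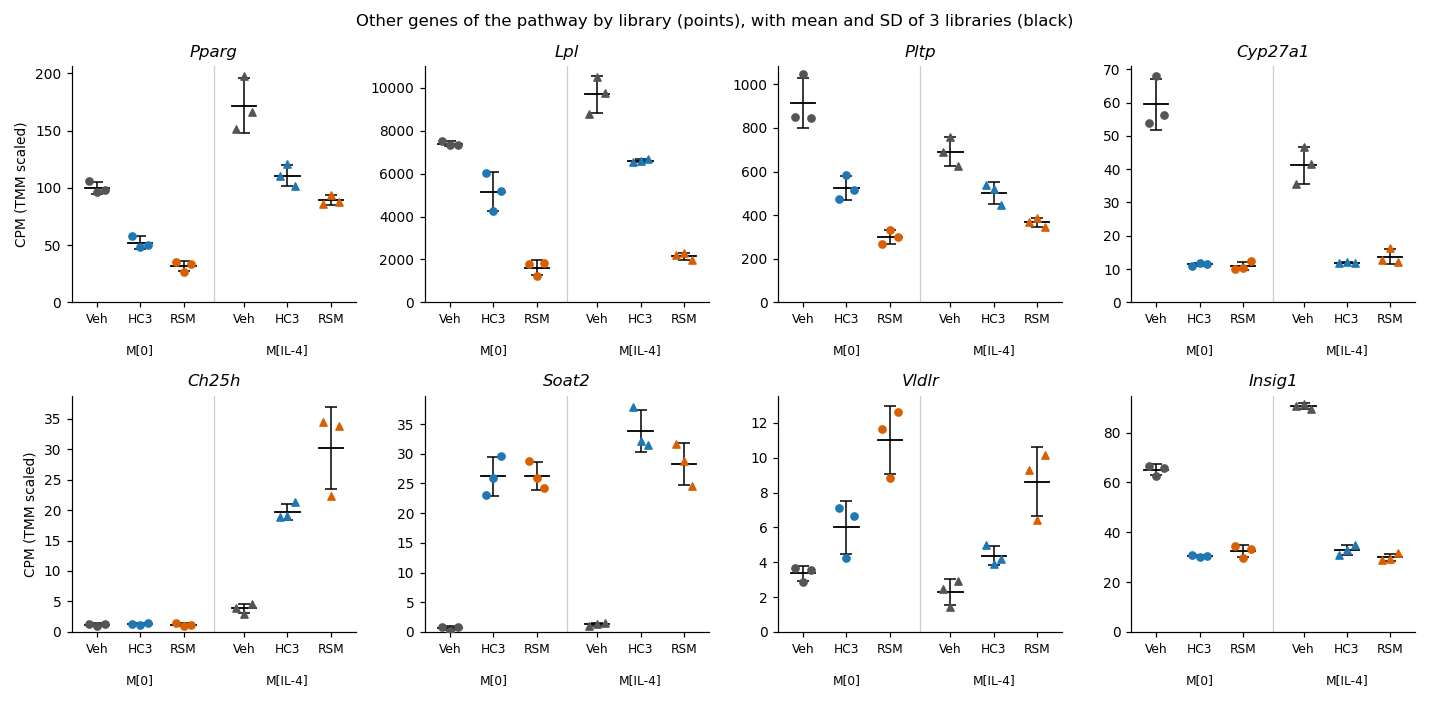
Expression of 8 other genes of the pathway in CPM (y axes, linear from 0) by treatment and polarization, with libraries as points and the mean and SD of 3 in black. *Soat2* is at or below 1.51 CPM in every Veh library and at 23.1 CPM or more in every inhibitor library, and *Ch25h* is at most 1.49 CPM in the M[0] libraries and at least 18.9 in the M[IL-4] inhibitor libraries.

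Among LXR partners and coregulators, 10 of 11 listed were tested. In naïve cells 5 of the 10 passed with either inhibitor (44.1% of all genes with HC3, 41.1% with RSM), and 3 (HC3) and 5 (RSM) did after IL-4 (38.8% and 38.6%). HC3 raised 1 and lowered 4 in M[0] and raised 1 and lowered 2 in M[IL-4], and RSM raised 2 and lowered 3 in M[0] and raised 3 and lowered 2 in M[IL-4]. *Pparg*, the lipid-sensing receptor that acts upstream of *Nr1h3* in macrophages, held 106, 96.2 and 98.1 CPM in Veh M[0], 58.3, 48.4 and 49.9 with HC3 and 35.0, 26.4 and 33.3 with RSM. The log2 fold changes of HC3 and RSM were -0.94 (SE 0.108, FDR = 9.37e-07) and -1.67 (SE 0.111, FDR = 6.99e-10) for naïve cells, then -0.63 (FDR = 8.18e-05) and -0.95 (FDR = 7.03e-07) after IL-4. IL-4 raised it by 0.78 in Veh (FDR = 1.35e-05), the same size as for *Abcg1*. *Ncoa3*, a coactivator, fell by 1.00 (FDR = 7.91e-11) and 0.83 (FDR = 1.08e-09) for naïve cells, then 0.45 and 0.27 after IL-4. *Ncor1*, a corepressor, rose by 0.39 (FDR = 1.45e-05) and 0.41 (FDR = 6.99e-06) in M[IL-4], and *Ncoa1* fell by 0.48 with IL-4 in Veh (FDR = 4.99e-05).

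Of 20 further genes of cholesterol transfer, esters and lysosomal release, all tested, HC3 raised 7 in both states and lowered 5 (naïve) or 3 (IL-4). RSM raised 5 and lowered 3 in M[0] and raised 7 and lowered 3 in M[IL-4]. *Soat2*, the second acyl-CoA cholesterol acyltransferase, known mainly from liver and intestine, went from near its floor to a level well above it. Veh M[0] libraries held 0.774, 0.235 and 0.914 CPM, HC3 libraries 23.1, 25.9 and 29.7, and RSM libraries 28.9, 25.8 and 24.2. The fitted log2 fold change was 5.32 for each (SE 0.229, FDR = 1.65e-12 and 2.41e-12), from 35 counts in all Veh M[0] libraries to 1500 and 1506. In M[IL-4] it was 4.73 (SE 0.205, FDR = 2.36e-12) and 4.47 (SE 0.205, FDR = 7.05e-12). In the same 4 comparisons *Soat1* rose by 0.28 to 0.46.

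*Gramd1b*, which brings plasma membrane cholesterol to the endoplasmic reticulum, rose in all 4 inhibitor comparisons, by 0.63 (HC3) and 0.94 (RSM) for naïve cells, then 0.35 and 1.01 after IL-4. *Stard4*, a sterol carrier and SREBP2 target, fell by 2.16 (FDR = 1.6e-09) with HC3 in M[IL-4]. IL-4 in Veh lowered *Abca5*, a transporter of endosomes and lysosomes, by 1.2 (FDR = 1.49e-05), and *Scarb2*, a lysosomal membrane protein, by 0.57 (FDR = 7.96e-05).

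Receptors for lipoproteins moved in either direction. Of 8 tested (9 listed), HC3 raised 2 and lowered 3 in M[0] and raised 1 and lowered 4 in M[IL-4]. RSM raised 2 and lowered 2 in M[0] and raised 2 and lowered 3 in M[IL-4]. *Vldlr*, a receptor for triglyceride-rich particles, rose by 1.71 (FDR = 1.09e-05) and 1.91 (FDR = 5.57e-06) with RSM. *Cd36*, a scavenger receptor, rose by 1.06 (FDR = 1.69e-08) with IL-4 in Veh. *Msr1*, another scavenger receptor, rose by 0.97 (FDR = 4.5e-08) with RSM in M[0], and *Lrp1* fell by 0.82 (FDR = 0.000127) with HC3 in M[0].

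Targets of SREBP2, listed for comparison with the LXR arm, moved together in IL-4 polarized cells. All 7 rose with IL-4 in Veh, where 16.1% of all genes were higher. In M[IL-4] all 7 fell with either inhibitor. The medians were 0.76, -1.21 and -1.0, against -0.01, 0.01 and 0.02 for all genes. In M[0], HC3 raised 1 and lowered 4, and RSM raised 1 and lowered 3. *Insig1*, the sterol sensor anchor, was at 65.0 ± 2.20 CPM in Veh M[0], 30.5 ± 0.372 with HC3 and 32.5 ± 2.49 with RSM, and at 90.5 ± 1.19, 32.9 ± 1.88 and 29.9 ± 1.499 in M[IL-4]. *Hmgcs1*, an early enzyme of sterol synthesis, rose by 0.83 with IL-4 in Veh (FDR = 9.92e-08) and fell by 0.94 with RSM in M[IL-4] (FDR = 1.11e-08). It shares 12.1% of its exon length with *Gm48342* on the opposite strand. *Srebf2*, which encodes SREBP2 itself, fell by 0.83 (FDR = 2.18e-06) and 0.60 (FDR = 9.83e-05) in M[0]. Because the 3 comparisons share Veh M[IL-4], the rise and the falls are not independent.

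Genes whose log2 CPM ran closest to that of 4 of the 10 genes over the 18 libraries were taken by the smallest root mean square difference after each was centred on its mean. For *Abca1*, which spans 1.83 log2 units, they were *Lpin2* (0.196), *Pid1* (0.207) and *Sorl1* (0.214). For *Abcg1*, which spans 2.69, they were *Dnmt3a* (0.205), *Gadd45b* (0.241) and *Pparg* (0.248). For *Mylip* (span 1.59), *Ndrg1* (0.158), *Rhod* (0.163) and *Cyfip2* (0.174) were closest, and for *Nr1h3* (span 1.26), *Cpq* (0.121), *Mtmr14* (0.126) and *Grb2* (0.134). *Lpin2* fell by 1.48 with IL-4 in Veh and by 1.01 with HC3 in M[0], where *Abca1* fell by 1.42 and 0.80. In M[IL-4], *Lpin2* also fell with HC3 (-0.38) and RSM (-0.28), where *Abca1* was at -0.20 and 0.12 and did not pass. *Ndrg1* was at -1.17 with IL-4 in Veh and at 0.88 with HC3 in M[IL-4], where *Mylip* was at -1.30 and 0.67. All of these values come from the same 18 libraries and describe likeness of pattern only.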

How the data were processed

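Poly-A RNA of BMDM was sequenced by the authors in 6 groups of 3 libraries. The deposited values are raw counts per gene, which the authors made with featureCounts from exonic STAR alignments to GRCm38. Their counts include PCR duplicates and leave out alignments of low mapping quality, and fastp had trimmed the input. The annotation release and the strand setting are not given in the sources used here. Symbols and positions (GENCODE, GRCm38) matched 55144 of 55385 genes.

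A gene was tested if 2 or more of the 18 libraries each gave it 10 or more reads (14979 genes), the filter of the study's methods. Libraries were scaled by TMM and tested in R 4.3.3 with edgeR 4.0.16 (glmQLFit, glmQLFTest) in 1 fit with a coefficient per group and Benjamini-Hochberg adjustment over all genes. SE is the log2 fold change divided by the square root of F. With 3 libraries against 3, an exact permutation test cannot go below p = 0.1. The 10 genes, the pathway lists and the tests were chosen with earlier results of these data known. Besides the 10 genes, those named are the 2 genes with the lowest FDR of each list in each inhibitor comparison and for IL-4 in Veh, and the 3 genes closest in pattern to *Abca1*, *Abcg1*, *Mylip* and *Nr1h3* with a mean of at least 5 CPM. *Rmc1*, the marker genes and *Lipa*, *Srebf1*, *Fasn* and *Scd1* of the closing section stand outside that rule.

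Same-numbered libraries of 1 state had residual correlations of 0.11 to 0.372, over 0.1 in 18 of 18 pairs, so the number pairs libraries within a state. Between states 12 of 27 were over 0.1. There, pairs numbered 2 had 0.239 to 0.3, above all differently numbered pairs (highest 0.198). Pairs numbered 1 or 3 had -0.0311 to 0.115, and replicate 3 of M[0] with replicate 1 of M[IL-4] had 0.0861 to 0.198. Whether libraries share a source between states was not tested. A replicate block over all groups gives each number the same effect in both states. Between states, only pairs numbered 2 stood above all differently numbered pairs, which limits what that block can show. The chi-square per gene between replicates was 6.3 to 20.3, so none repeated another. Alternatives were a replicate block over all groups or within a state (for interactions added after seeing the data), a fit of only the compared groups, no count filter (29054 genes) or filterByExpr (14466 genes), library size scaling, DESeq2 1.42.0 and leaving out each replicate number. On simulated data (HC3 against Veh in M[0], 14979 genes, 200 changed), edgeR recovered 194 (97%) with 4 false calls and DESeq2 193 (96.5%) with 13. The changed genes were well counted and moved at least 2-fold, with the same dispersion for every gene and no replicate effect. Recovery of smaller changes was therefore not tested. Promoters came from RefSeq, GRCm38.p6. Python 3.11.15 drew the figures, and blastn 2.17.0 searched for near-identical transcripts. 3 counts in 1 library are 0.153 to 0.176 CPM, which covers counting error only. Values of a few genes of the lists and markers are not reported here.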

Additional observations from a re-analysis of the deposited data

Results flagged for a closer look

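The response to an inhibitor differed between M[0] and M[IL-4] for 3 of the 20 results tested on the 10 genes, by the interaction term of the edgeR fit. Of all genes, 6.48% passed that term for HC3 and 9.19% for RSM. *Mylip* differed by 0.51 on the log2 scale for HC3 (FDR = 0.0382, range over alternatives 0.000474 to 0.36) and by 0.59 for RSM (FDR = 0.0114, range 6.29e-05 to 0.19). *Npc2* differed by 0.49 for RSM (FDR = 0.012, range 2.67e-05 to 0.225). In M[IL-4], *Mylip* was higher with either inhibitor than with Veh in 3 of 3 same-numbered pairs. In M[0] it was higher in 3 of 3 pairs with HC3 and in 0 of 3 with RSM. *Npc2* was lower with RSM in 3 of 3 pairs in M[0] and in 1 of 3 in M[IL-4]. Summed macrophage markers stood at 8955.4 to 9969.5 CPM (HC3) and 15987.6 to 17343.0 CPM (RSM) against 20736.8 to 21728.7 CPM (Veh) in M[0]. In M[IL-4] they stood at 7859.8 to 8972.3 and 11187.8 to 13460.6 against 12275.2 to 12584.0 CPM, and their part in these differences was not tested.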

How the results depend on the processing

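Of 110 results (10 genes in 11 comparisons), DESeq2 left 108 on the same side with the same sign, filterByExpr 110, library size scaling 104, no count filter 94, and only the compared groups 103. Leaving out replicates 1, 2 and 3 left 98, 95 and 89. The cause was not tested. The replicate block over all groups brought 15 further calls and the replicate block within a state 20 (of 80), and neither ended one. The block over all groups treats the numbers as paired between states, where only pairs numbered 2 stood above all differently numbered pairs. Of the 10 genes, the number that passed under IL-4 in RSM went from 4 to 7 with the replicate block. The HC3 interaction went from 1 to 2 with the block, with only the compared groups, with DESeq2 and with library size scaling, and to 3 with no filter. The RSM interaction went from 2 to 5 with the block and with no filter. With the replicate block within a state, added for the interactions after seeing the data, these became 4 and 7. HC3 against RSM in M[0] went from 2 to 5 with the block, 7 with the block within the state and 5 with no filter, and in M[IL-4] from 2 to 4, 6 and 4. The replicate block within a state changed no call other than those given beside the results, and the block changed no other count by over 1.5 times. Shares of all genes passing were not counted under the alternatives.

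Without single replicates, the numbers ran from 3 to 6 (IL-4 in Veh), 3 to 5 (IL-4 in RSM), 0 to 2 (HC3 interaction), 0 to 4 (RSM interaction), 1 to 2 (HC3 against RSM in M[0]) and 0 to 3 (in M[IL-4]), and past 2-fold for HC3 against RSM in M[0] from 0 to 1. 17 results, each with an FDR of at least 0.514, changed sign. With library size scaling, *Nr1h2* was at 0.0301 (HC3 in M[0]), 0.0171 (RSM in M[IL-4]) and -0.0205 (IL-4 in HC3), and *Soat1* at -0.0008 (IL-4 in RSM). With no filter, *Nr1h2* was at 0.0096 for IL-4 in Veh. Without single replicates, log2 fold changes ran from -0.0026 to 0.1886 (*Abca1*, RSM in M[IL-4]), -0.0509 to 0.0552 (*Abcg1*, HC3 interaction), -0.0086 to 0.0755 (*Nr1h3*, HC3 against RSM in M[IL-4]) and -0.1014 to 0.0283, -0.0065 to 0.0598, -0.2306 to 0.1095, -0.1219 to 0.1075 and -0.0047 to 0.1088 (*Nr1h2*, HC3 in M[0], HC3 in M[IL-4], IL-4 in Veh, IL-4 in HC3, HC3 interaction). They ran from -0.1270 to 0.0008 and -0.0759 to 0.0083 (*Soat1*, HC3 interaction, HC3 against RSM in M[0]), -0.0219 to 0.1075 (*Npc1*, HC3 interaction), -0.1079 to 0.0264 and -0.0748 to 0.0017 (*Npc2*, RSM in M[IL-4], IL-4 in Veh), and -0.0009 to 0.2219 and -0.0886 to 0.0892 (*Scarb1*, RSM interaction, HC3 against RSM in M[IL-4]). Allowing 3 mismatches in the DR4 search took the genes with a match from 0 to 1.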

Other observations

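Listed genes of the fatty acid side of the LXR programme and of lysosomal ester hydrolysis, picked with their values in view, also differed between treatments. *Lipa*, the lysosomal acid lipase that frees cholesterol from esters, fell from 3086.9 ± 141 CPM in Veh M[0] to 2123.8 ± 126 (HC3) and 1637.9 ± 54.8 (RSM). After IL-4 it fell from 3032.1 ± 284 CPM to 2193.7 ± 171 and 1660.8 ± 113. *Srebf1*, the LXR target that drives fatty acid synthesis, fell by 0.24 with either inhibitor in M[0] (FDR = 0.0215 and 0.0238) and by 0.47 and 0.46 in M[IL-4] (FDR = 0.000154 and 0.000158). *Fasn*, the fatty acid synthase, was at 0.10 and -0.14 in M[0] (FDR = 0.635 and 0.479), and after IL-4 fell by 0.58 and 0.77 (FDR = 0.00384 and 0.000369). Values of the desaturase genes lay higher in naïve cells with either inhibitor. *Scd1* rose from 15.2 ± 4.36 CPM in Veh M[0] to 22.95 ± 5.50 with HC3 (0.59, FDR = 0.0391) and 28.4 ± 4.80 with RSM (0.90, FDR = 0.0031), and was at -0.05 and -0.04 in M[IL-4] (FDR = 0.894 and 0.917). *Scd2* was at 0.26 with HC3 (FDR = 0.244) and rose by 0.84 with RSM (FDR = 0.000626) in M[0], and fell by 1.29 and 0.74 in M[IL-4] (FDR = 7.69e-06 and 0.00176).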
